A study of Oryctolagus cuniculus with 6 samples.

Results

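Heat shock proteins and their co-chaperones were examined in primary limbal stem cells (LSCs) of the rabbit, the stem cells of the corneal epithelium. The members were all genes of the deposited count table whose symbol began with HSPA, HSPB, DNAJA, DNAJB, DNAJC or BAG followed by a digit, or with HSP90, or was HSPD1, HSPE1 or HSPH1. This rule gave 69 of 22190 genes and used no measured value. The rule and the gene lists used below were chosen with earlier results of these data known. The LSCs grew out of limbal explants in culture, from fresh rabbit corneal tissue in the fresh group (3 libraries) and from preconditioned tissue in the preconditioned group (3 libraries). Preconditioned corneas were held in liquid nitrogen for 7 days in a cryomedium with serum, dimethyl sulfoxide and 10 ng/mL IL-1β, an inflammatory cytokine, and were thawed before the limbus was cultured. Cryopreservation and IL-1β were applied together and cannot be told apart here. The strain, age and sex of the rabbits, and the animal behind each library, are not given in the sources used here, so p values measure only the spread between these libraries, which may be technical.

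Chaperones of the HSP70 family bind unfolded stretches of other proteins and release them in a cycle driven by ATP. J-domain proteins (DNAJA, DNAJB and DNAJC) bring substrates and start the cycle, whereas nucleotide exchange factors, which include the BAG proteins and the HSP110 family, end it. HSP90 matures signalling proteins downstream of HSP70, HSP60 with its lid HSP10 folds proteins inside mitochondria, and small heat shock proteins hold unfolded proteins without ATP. The endoplasmic reticulum (ER) has its own HSP70, HSP90 and J-domain proteins for secreted and membrane proteins.

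Each library held 31952352 to 34327534 counts on genes. Of the 69 members, 62 were among the 15029 genes that passed the filter on low counts, and each tested member had at least 13 counts in every library. DNAJB13, DNAJC22 and DNAJC5B had at most 1 count in any library. The other members below the filter were HSPA6, an HSP70 known for strong induction by heat (2 to 15 counts), HSPB2 (0 to 5), HSPB7 (1 to 25) and HSPB3. HSPB3, a small heat shock protein of muscle, had 4, 1 and 0 counts in the fresh libraries and 11, 8 and 7 in the preconditioned libraries. Levels are given below as CPM, the counts per library size after scaling by TMM factors,, for 1 gene between libraries, and as FPKM, per length, where genes are compared with each other. Differences are log2 fold changes, preconditioned against fresh, with their standard error (SE) and the adjusted p of edgeR's quasi-likelihood test over all tested genes.

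The chaperone genes did not share a direction. Genes were taken as differentially expressed if their adjusted p was 0.05 or lower and their log2 fold change was 1 or more in size, which held for 2.29% of all tested genes (1.08% higher and 1.2% lower in the preconditioned group). None of the 62 tested members met this in edgeR. Without the fold change cutoff, 2 members passed in edgeR, HSPB8 and DNAJB9, both higher in the preconditioned group, against 5.08% of all tested genes (2.88% higher and 2.2% lower). DESeq2 gave 11 of the 63 members with an adjusted p, against 19.1% of its genes, and with the fold change cutoff 1, DNAJC6, against 7.78%. At an unadjusted p of at most 0.05 there were 22 members in edgeR, 11 higher and 11 lower, whereas 30.6% of all tested genes passed (15.5% higher and 15.1% lower). The 3 preconditioned libraries all lay above the 3 fresh libraries in 14 members and all below in 15, and the groups overlapped in 33. Among all tested genes the groups did not overlap in 36.7% (17.9% higher and 18.8% lower). The log2 fold change was above 0 in 35 of the 62 members and in 50.5% of all tested genes. The median log2 fold change was 0.09 over tested members and 0.01 over all tested genes. Single members ranged from −0.79 for DNAJC21 to 1.52 for DNAJC6.

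**Figure D1:**
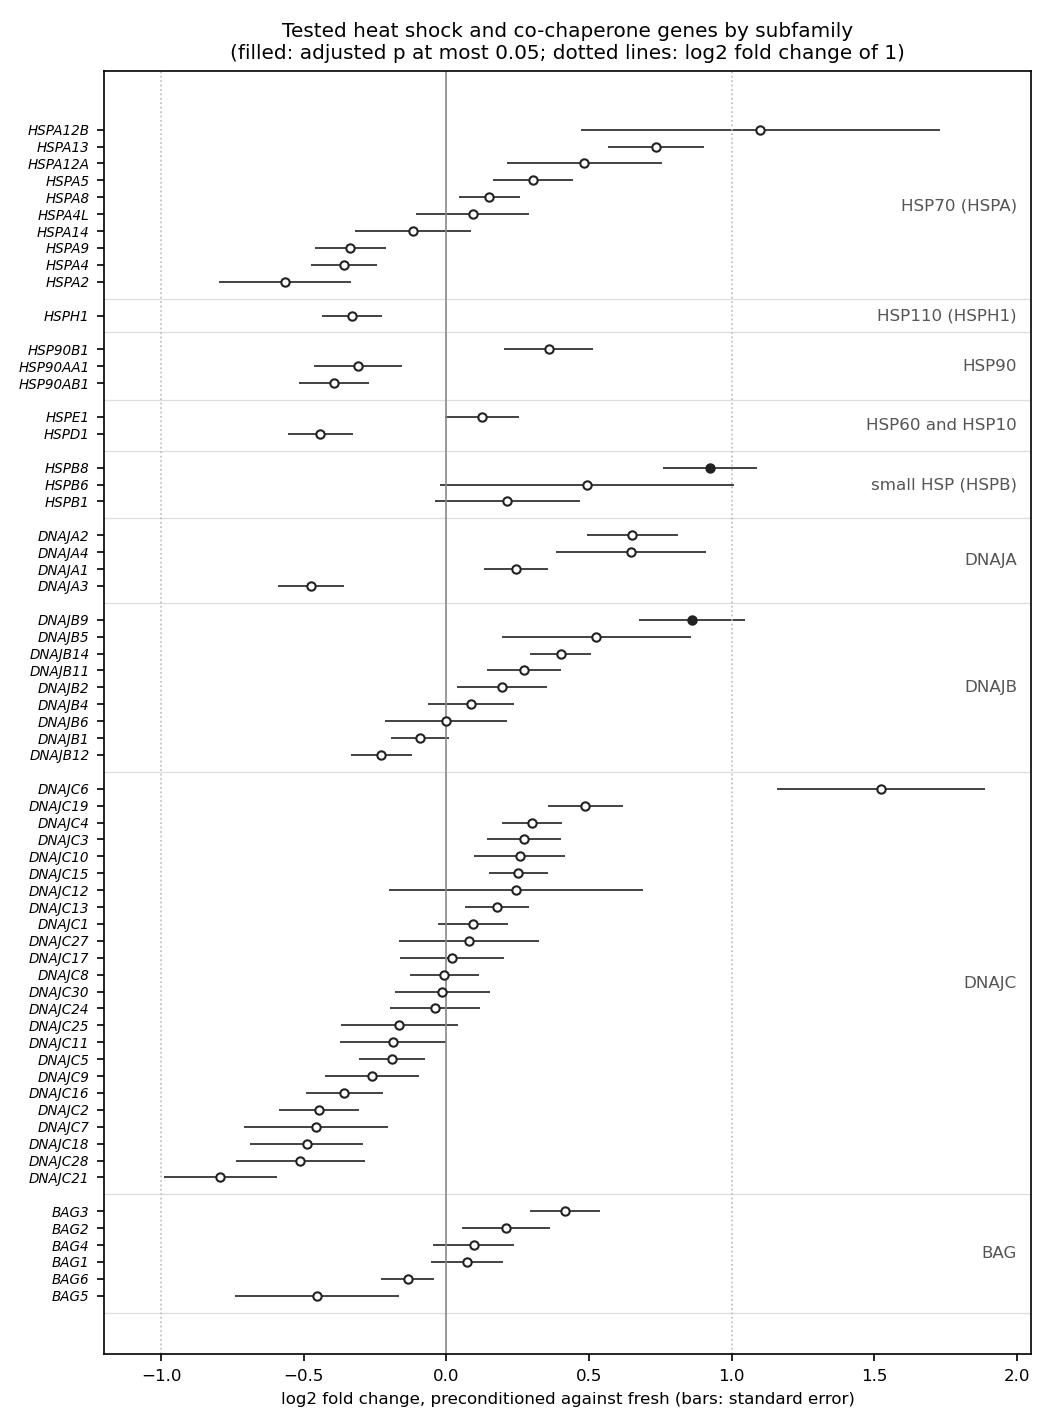
Log2 fold change (x axis, preconditioned against fresh) of each tested member, grouped by subfamily, with its standard error as a bar and 3 libraries per group. Filled points mark HSPB8 and DNAJB9, which passed an adjusted p of 0.05, and the points span −0.79 to 1.52 around the line at 0.

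The split of calls between higher and lower depended on the scaling. TMM factors were 1.06 to 1.07 in the fresh and 0.914 to 0.965 in the preconditioned libraries, and scaling by library size alone shifted the median of all tested genes to −0.16. Under that scaling 8 members passed an adjusted p of 0.05, with only HSPB8 higher and HSP90AB1, HSPD1, HSPH1, HSPA4, DNAJA3, DNAJC2 and DNAJC21 lower, in place of 2 higher and 0 lower under TMM, and 8.92% of all tested genes passed. The sign turned in 5 named members close to 0 (BAG1, DNAJB4, HSPA4L, HSPA8 and HSPE1). Preconditioned replicate 1 lay nearest to the fresh libraries. Of the 22 members with an unadjusted p of at most 0.05, it was the preconditioned library closest to the fresh mean in 19. Its median distance there was 0.324 on the log2 scale, against 0.509 and 0.558 for replicates 2 and 3. These members were selected by a p value from the same libraries, and the share over all tested genes was not determined. Without preconditioned replicate 1, 19 members passed an adjusted p of 0.05, 9 higher and 10 lower, as did 25.2% of all tested genes. Of the 63 members tested in that fit, HSPB8, DNAJB9 and DNAJC6 also passed the fold change cutoff, as did 1546 of all tested genes. When any of the other 5 libraries was left out, no member passed, and only 0.0908% to 0.533% of all tested genes did.

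HSP70 transcripts were the most abundant subfamily, with summed FPKM of 1265, 1319 and 1249 in the fresh libraries and 1269, 1199 and 1231 in the preconditioned libraries. Most of this came from HSPA8, the constitutive cytosolic HSP70. HSPA8 made up 67.1% to 69.1% of HSP70 FPKM in fresh and 67.6% to 72.1% in preconditioned libraries, and ranked 90th among all genes by mean FPKM. It had 1945, 2011 and 1844 CPM in the fresh libraries and 2169, 2080 and 2190 CPM in the preconditioned libraries. The groups did not overlap, but the log2 fold change was only 0.15 (SE 0.11, adjusted p = 0.37) and turned to −0.02 when libraries were scaled by their size alone. Its mean FPKM was 874 ± 35.7 (SD, n = 3) in fresh and 863 ± 46.1 (n = 3) in preconditioned cells.

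The compartment-specific HSP70 proteins lay on opposite sides. HSPA5 (BiP), the HSP70 of the ER, had 414, 473 and 449 CPM in fresh and 506, 648 and 496 CPM in preconditioned libraries. Every preconditioned library was above every fresh one, with a log2 fold change of 0.31 (SE 0.14, adjusted p = 0.19). HSPA9 (mortalin), the HSP70 of the mitochondrial matrix, had 254, 259 and 254 CPM in fresh and 236, 188 and 184 CPM in preconditioned libraries. All preconditioned values were below the fresh ones, with replicate 1 closest (−0.34, SE 0.13, adjusted p = 0.13). Within a library, the ratio of HSPA9 to HSPA5 FPKM was 0.562, 0.501 and 0.518 in fresh and 0.426, 0.265 and 0.339 in preconditioned cells, with no overlap. With 3 against 3 libraries, an exact two-sided permutation test of such a ratio cannot go below p = 0.1.

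HSPA13, an atypical HSP70 of the microsomal fraction, was the HSP70 gene with the smallest p. It had 47.8, 43.6 and 53.7 CPM in fresh and 64.2, 97.0 and 80.2 CPM in preconditioned libraries. The groups did not overlap, and the log2 fold change of 0.73 (SE 0.17) just missed the threshold (adjusted p = 0.052). HSPA2, best known from male germ cells, was present at a low level, with 8.35, 11.6 and 9.68 CPM in fresh and 8.19, 5.85 and 5.96 CPM in preconditioned libraries (−0.57, SE 0.23, adjusted p = 0.15). Of the other HSP70 genes, HSPA4 is described with the HSP110 family below, and HSPA12A, HSPA12B, HSPA14 and HSPA4L overlapped between groups. HSPA12B, a distant relative known from endothelium, had the largest positive value of the subfamily (1.10, SE 0.63, adjusted p = 0.27), which rested on 1.85 CPM in preconditioned replicate 2 against 0.377 to 0.659 CPM elsewhere.

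Proteins of the HSP110 family exchange the nucleotide of HSP70 and help it to dissolve aggregates. HSPA4 had 348, 346 and 336 CPM in fresh and 301, 257 and 246 CPM in preconditioned libraries. HSPH1 had 99.3, 94.0 and 102 CPM in fresh and 79.6, 71.1 and 83.7 CPM in preconditioned libraries. For both, all preconditioned libraries lay below all fresh ones, at −0.36 (SE 0.12, adjusted p = 0.094) and −0.33 (SE 0.11, adjusted p = 0.091). Both passed an adjusted p of 0.05 when libraries were scaled by their size alone. HSPH1 FPKM per HSPA8 FPKM was 0.0317 ± 0.0026 (SD, n = 3) in fresh and 0.0226 ± 0.0013 (n = 3) in preconditioned cells, without overlap. HSPA4L, the third gene of this family under the symbol rule, overlapped (0.09, SE 0.20, adjusted p = 0.78). Fresh replicate 2 was lowest at 50.2 CPM, with the other libraries at 65.5 to 81.6 CPM.

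**Figure D2:**
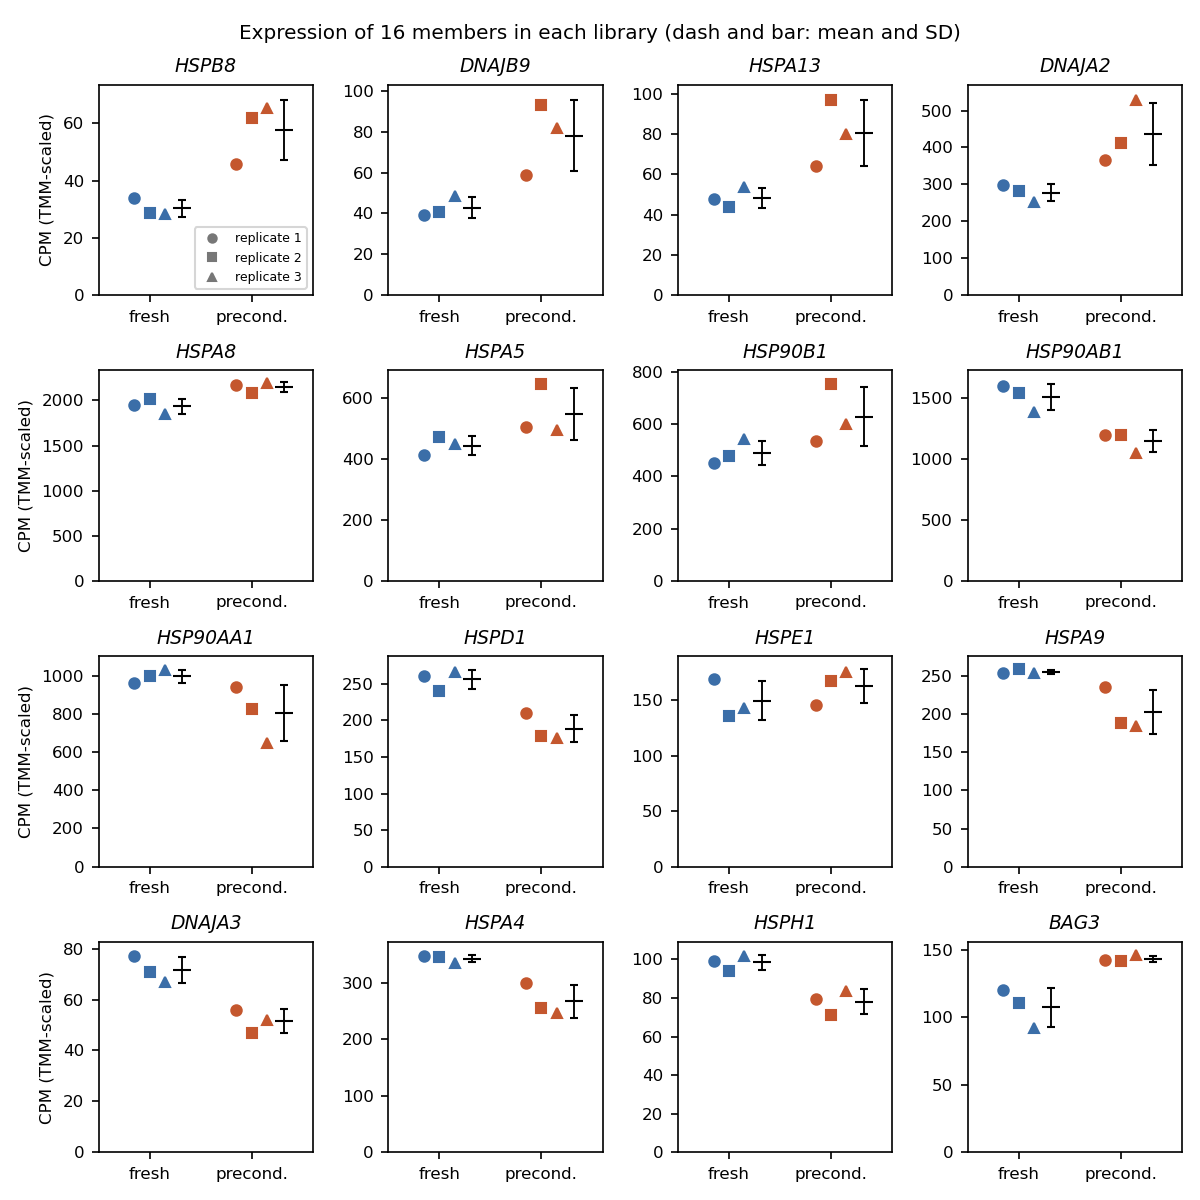
TMM-scaled CPM (y axis, from 0) of selected members in the 3 fresh (blue) and 3 preconditioned (red) libraries, with circles, squares and triangles for replicates 1, 2 and 3 and a dash and bar for mean and SD. HSPB8 and DNAJB9 lie at least 45.7 and 58.9 CPM in preconditioned cells against at most 33.8 and 48.5 CPM in fresh cells, and HSP90AB1 and HSPD1 lie lower in every preconditioned library.

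HSP90 was measured as 3 genes. None passed the test, and the log2 fold changes of the cytosolic forms were below 0 and that of the ER form above 0. HSP90AB1, the constitutive cytosolic HSP90, had 1596, 1546 and 1389 CPM in fresh and 1201, 1200 and 1046 CPM in preconditioned libraries. The groups were separated, at a log2 fold change of −0.39 (SE 0.12, unadjusted p = 0.013, adjusted p = 0.086). HSP90AA1, the stress-inducible cytosolic form, had 964, 997 and 1032 CPM in fresh and 941, 824 and 647 CPM in preconditioned libraries. Here preconditioned replicate 1 almost reached the fresh range, and the difference was −0.31 (SE 0.15, adjusted p = 0.22). HSP90B1 (GRP94), the ER form, had 452, 477 and 543 CPM in fresh and 535, 752 and 600 CPM in preconditioned libraries. Its groups overlapped, with a log2 fold change of 0.36 (SE 0.16, adjusted p = 0.17).

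Shares within a library do not depend on the scaling between libraries. HSP90B1 held 14.6%, 15.4% and 17.9% of HSP90 FPKM in fresh and 19.6%, 26.6% and 25.5% in preconditioned libraries. HSP90AB1 held 18.3%, 17.6% and 16.2% of the FPKM of all members in fresh libraries and 13.5%, 13.5% and 12.4% in preconditioned libraries. In both, each preconditioned library lay outside the fresh range. HSP90AA1 held 9.57%, 9.86% and 10.4% of the FPKM of all members in fresh and 9.15%, 8.02% and 6.65% in preconditioned libraries. These groups did not overlap either. Only the HSP90AA1 share of HSP90 FPKM overlapped, with 29.4% to 32.1% in fresh and 26.0% to 32.5% in preconditioned libraries. Summed HSP90 FPKM was 1166, 1173 and 1151 in fresh and 939.9, 924.4 and 796.9 in preconditioned libraries, and the members together made up 0.693% ± 0.011 (SD, n = 3) of all FPKM in fresh and 0.580% ± 0.029 (n = 3) in preconditioned cells.

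HSP60 and HSP10, the mitochondrial chaperonin and its lid, are encoded by HSPD1 and HSPE1, which neighbour each other in the RefSeq annotation of the rabbit assembly mOryCun1.1. HSPD1 had 261, 241 and 266 CPM in fresh and 210, 179 and 176 CPM in preconditioned libraries, with no overlap (−0.44, SE 0.11, unadjusted p = 0.0059, adjusted p = 0.062). HSPE1 had 169, 136 and 143 CPM in fresh and 145, 168 and 175 CPM in preconditioned libraries. It overlapped between groups (0.12, SE 0.13, adjusted p = 0.54), and its sign turned with library size scaling. HSPE1 FPKM per HSPD1 FPKM was 0.373, 0.326 and 0.310 in fresh and 0.400, 0.540 and 0.573 in preconditioned cells, so that every preconditioned library had the higher ratio. Other such quantities overlapped and are not plotted, namely the HSP90AA1 share of HSP90, the HSPA8 share of HSP70 and the ratio of HSPA5 to HSPA8 (0.194 to 0.222 in fresh and 0.207 to 0.284 in preconditioned libraries).

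**Figure D3:**
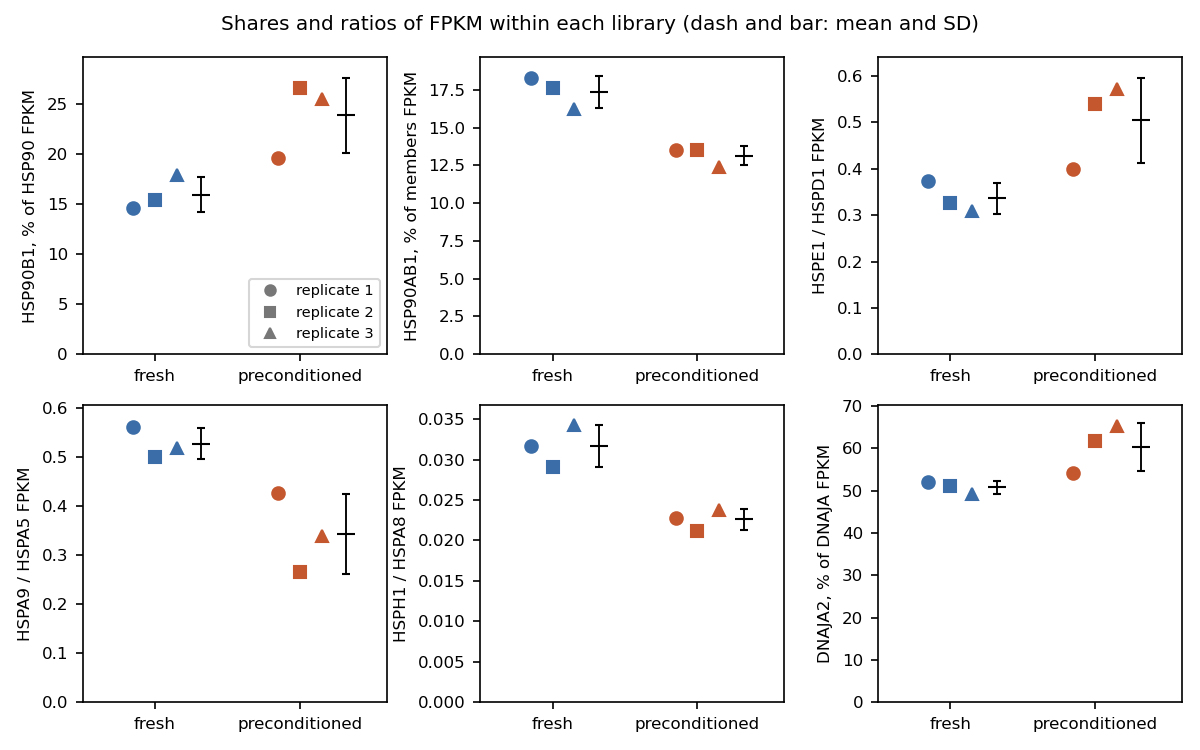
Shares (in %) and ratios of FPKM between members within each of the 3 fresh (blue) and 3 preconditioned (red) libraries, with marker shapes for the replicates and a dash and bar for mean and SD. The HSP90B1 share of HSP90 FPKM lies at 14.6% to 17.9% in fresh and 19.6% to 26.6% in preconditioned libraries, and the 6 panels were chosen among quantities without overlap.

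Among small heat shock proteins, HSPB8 rose. HSPB8 is the partner of BAG3 in handing misfolded proteins to autophagy. It had 33.8, 28.9 and 28.3 CPM in fresh and 45.7, 61.8 and 65.4 CPM in preconditioned libraries, a mean of 30.3 ± 3.02 (SD, n = 3) against 57.6 ± 10.5 (n = 3). The groups did not overlap, and the log2 fold change was 0.93 (SE 0.16, 1.90-fold, adjusted p = 0.038). It passed without preconditioned replicate 1 (adjusted p = 0.0042), but not without any 1 of the other libraries (adjusted p = 0.09 to 0.14), and it missed the threshold in 7 of all 16 alternatives. HSPB1 (HSP27) and HSPB6, the other tested small heat shock proteins, had low counts and overlapping groups, at 4.46 to 7.99 CPM and 1.0 to 3.52 CPM over all libraries. Their log2 fold changes were 0.21 (SE 0.25, adjusted p = 0.60) and 0.49 (SE 0.52, adjusted p = 0.55).

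The HSPB1 level needs a reservation. A further row, LOC127488490, was described as heat shock protein beta-1, and the row with the symbol HSPB1 held only 25.8% to 36.9% of the counts of both. RefSeq gives the symbol HSPB1 to the gene of that further row. LOC127488490 alone had 12.81, 14.09 and 12.17 CPM in fresh and 16.65, 15.51 and 18.31 CPM in preconditioned libraries. Its groups were separated, at 0.37 (SE 0.15, unadjusted p = 0.044, adjusted p = 0.15). Summed, both rows had 17.3, 21.5 and 19.3 CPM in fresh and 23.7, 23.5 and 25.3 CPM in preconditioned libraries. The groups were then separated, but the difference did not pass the test (0.32, SE 0.14, adjusted p = 0.17). In all, 20 rows without a symbol were described as proteins of 11 members, which shared reads could split. HSPA8, HSPE1, HSP90AA1, DNAJA1, DNAJB6, DNAJC8 and BAG1 had such rows as well, but only in DNAJC8 did the named row hold under 80% of the counts (64.8% to 66.1%). With all copies summed, the count of members past an adjusted p of 0.05 was again 2, HSPB8 and DNAJB9. The heat-inducible HSP70 genes HSPA1A and HSPA1B were not found under these symbols. The 6 rows described as HSP70 1B or 1-like had 35, 57 and 82 counts together in fresh libraries and 32, 35 and 43 in preconditioned libraries, which is 0.974 to 2.24 CPM.

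Type A J-domain proteins are the general partners of HSP70, in the cytosol and, for DNAJA3, in mitochondria. DNAJA2 had 298, 283 and 253 CPM in fresh and 367, 413 and 530 CPM in preconditioned libraries. Every preconditioned value was above the fresh range, at 0.65 (SE 0.16, unadjusted p = 0.0043, adjusted p = 0.057). Its share of DNAJA FPKM was 49.1% to 52.1% in fresh and 54.1% to 65.2% in preconditioned libraries. DNAJA1 had 94.5, 96.4 and 94.3 CPM in fresh and 127, 101 and 110 CPM in preconditioned libraries (0.24, SE 0.11, adjusted p = 0.19). DNAJA3 (Tid1), the mitochondrial member, had 77.2, 70.9 and 67.0 CPM in fresh and 55.9, 46.8 and 52.1 CPM in preconditioned libraries, and the groups were separated in the other direction (−0.48, SE 0.12, adjusted p = 0.055). DNAJA4 overlapped between groups, since preconditioned replicate 1 had 7.39 CPM, within the fresh range of 6.98 to 7.48 CPM, and replicates 2 and 3 had 12.3 and 14.1 CPM (0.65, SE 0.26, adjusted p = 0.15).

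Of the type B J-domain proteins, DNAJB9 (ERdj4) rose. DNAJB9 is an ER partner of BiP that the unfolded protein response induces. It had 39.4, 40.8 and 48.5 CPM in fresh and 58.9, 93.0 and 81.8 CPM in preconditioned libraries, a mean of 42.9 ± 4.92 (SD, n = 3) against 77.9 ± 17.4 (n = 3). The groups did not overlap, and the log2 fold change was 0.86 (SE 0.18, 1.82-fold, adjusted p = 0.047). The call was lost with library size scaling (adjusted p = 0.052), in limma on log2(FPKM + 1) and log2(FPKM + 0.1) (adjusted p = 0.061 and 0.059) and without any 1 library other than preconditioned replicate 1 (adjusted p = 0.10 to 0.16), and it was at 0.0056 without that library. Over all 16 alternatives it was lost in 10.

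DNAJB14, a J-domain protein of the ER membrane, had 61.4, 57.3 and 61.2 CPM in fresh and 71.1, 85.0 and 81.3 CPM in preconditioned libraries, which did not overlap (0.40, SE 0.11, adjusted p = 0.068). DNAJB12, its close relative in the same membrane, was separated the other way, with 31.8 to 32.7 CPM in fresh and 26.7 to 28.1 CPM in preconditioned libraries (−0.23, SE 0.11, adjusted p = 0.20). DNAJB1 (HSP40), the heat-inducible partner of HSP70, was nearly level, with 108, 110 and 105 CPM in fresh and 110, 94.1 and 99.2 CPM in preconditioned libraries (−0.09, SE 0.10, adjusted p = 0.56). DNAJB6, which keeps polyglutamine proteins from aggregating, had 153, 128 and 159 CPM in fresh and 194, 136 and 109 CPM in preconditioned libraries, which spread to both sides of the fresh range (0.00, SE 0.21, adjusted p = 0.99). DNAJB4 (0.09, SE 0.15, adjusted p = 0.73) and DNAJB11 (ERdj3; 0.27, SE 0.13, adjusted p = 0.20) also overlapped.

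The DNAJC class joins proteins that share only the J domain, and its 24 tested genes spread to both sides, with a median log2 fold change of −0.01. DNAJC6 (auxilin), which recruits HSPA8 to strip clathrin from vesicles, had the largest difference of all members at a low level, with 2.44, 1.83 and 2.11 CPM in fresh and 3.99, 9.11 and 5.24 CPM in preconditioned libraries. The groups were separated, but the preconditioned libraries were widely spread, and the log2 fold change of 1.52 (SE 0.36) had an adjusted p of 0.055. DNAJC21, a cytosolic factor in the maturation of large ribosomal subunits, had 20.3, 17.4 and 19.5 CPM in fresh and 13.2, 8.54 and 11.3 CPM in preconditioned libraries (−0.79, SE 0.20, adjusted p = 0.059). DNAJC2, the ribosome-bound J-domain protein, likewise had lower values in every preconditioned library, 22.9 to 30.5 CPM against 34.6 to 37.4 CPM (−0.45, SE 0.14, adjusted p = 0.09).

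The J-domain proteins of the mitochondrial import motor, DNAJC19 and DNAJC15, were separated upward. DNAJC19 had 40.0, 38.0 and 31.7 CPM in fresh and 47.0, 52.9 and 53.9 CPM in preconditioned libraries (0.49, SE 0.13, adjusted p = 0.066). DNAJC15 had 95.0, 81.7 and 91.5 CPM in fresh and 111, 106 and 102 CPM in preconditioned libraries (0.25, SE 0.10, adjusted p = 0.15). DNAJC4 was also higher in every preconditioned library (0.30, SE 0.10, adjusted p = 0.11), and DNAJC16, DNAJC18 and DNAJC28 were lower in every one (−0.36, −0.49 and −0.51, adjusted p = 0.13, 0.15 and 0.17). The spread was larger in DNAJC7, which also binds HSP90, where preconditioned replicate 1 had 91.0 CPM, above the fresh libraries (81.8 to 90.1 CPM), and replicates 2 and 3 had 53.4 and 44.9 CPM (−0.46, SE 0.25, adjusted p = 0.26). DNAJC11 also had its highest value in preconditioned replicate 1, with 115 CPM, and 73.2 and 76.3 CPM in replicates 2 and 3, against 93.9 to 108 CPM in fresh cells (−0.19, SE 0.19, adjusted p = 0.52). DNAJC10 (ERdj5), a reductase of the ER, and DNAJC8, a nuclear protein, overlapped between groups at 0.26 (SE 0.16, adjusted p = 0.31) and −0.01 (SE 0.12, adjusted p = 0.97).

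Among the BAG proteins, which release substrates from HSP70, BAG3 had 120, 110 and 91.8 CPM in fresh and 142, 142 and 146 CPM in preconditioned libraries. The preconditioned libraries were nearly equal and all above the fresh range, at 0.42 (SE 0.12, unadjusted p = 0.011, adjusted p = 0.079). BAG6, which sorts membrane proteins that missed the ER, had 219, 232 and 219 CPM in fresh and 206, 205 and 200 CPM in preconditioned libraries (−0.14, SE 0.09, adjusted p = 0.36). BAG5 overlapped, with 27.4, 32 and 37.5 CPM in fresh cells, 34.8 CPM in preconditioned replicate 1 and 16.6 and 19.4 CPM in replicates 2 and 3 (−0.45, SE 0.29, adjusted p = 0.32). BAG1 overlapped as well (0.07, SE 0.13, adjusted p = 0.73).

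By compartment, 9 of the 13 tested ER members had a log2 fold change above 0, with a median of 0.27, where 50.5% of all tested genes were above 0. With library size scaling DNAJB9 was at 0.69, DNAJB14 at 0.23, DNAJB11 at 0.10 and DNAJC10 at 0.09. That scaling put the median of all tested genes at −0.16. DNAJB9 alone passed an adjusted p of 0.05 in edgeR, as did 5.08% of all tested genes, whereas HSPA13 and DNAJB14 also passed in DESeq2. The preconditioned libraries were all higher in 4 of the 13 (DNAJB9, HSPA13, DNAJB14 and HSPA5), all lower in 3 (DNAJB12, DNAJC16 and DNAJC18) and overlapped in 6, where 17.9% of all tested genes were separated upward and 18.8% downward. Of the 10 mitochondrial members 4 were above 0, with a median of −0.10, and none passed an adjusted p of 0.05 in edgeR. In DESeq2 DNAJA3, DNAJC19 and HSPD1 passed, where 19.1% of its genes did. Here the preconditioned libraries were all higher in 3 (DNAJC19, DNAJC4 and DNAJC15), all lower in 4 (HSPA9, HSPD1, DNAJA3 and DNAJC28) and overlapped in 3.

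**Figure D4:**
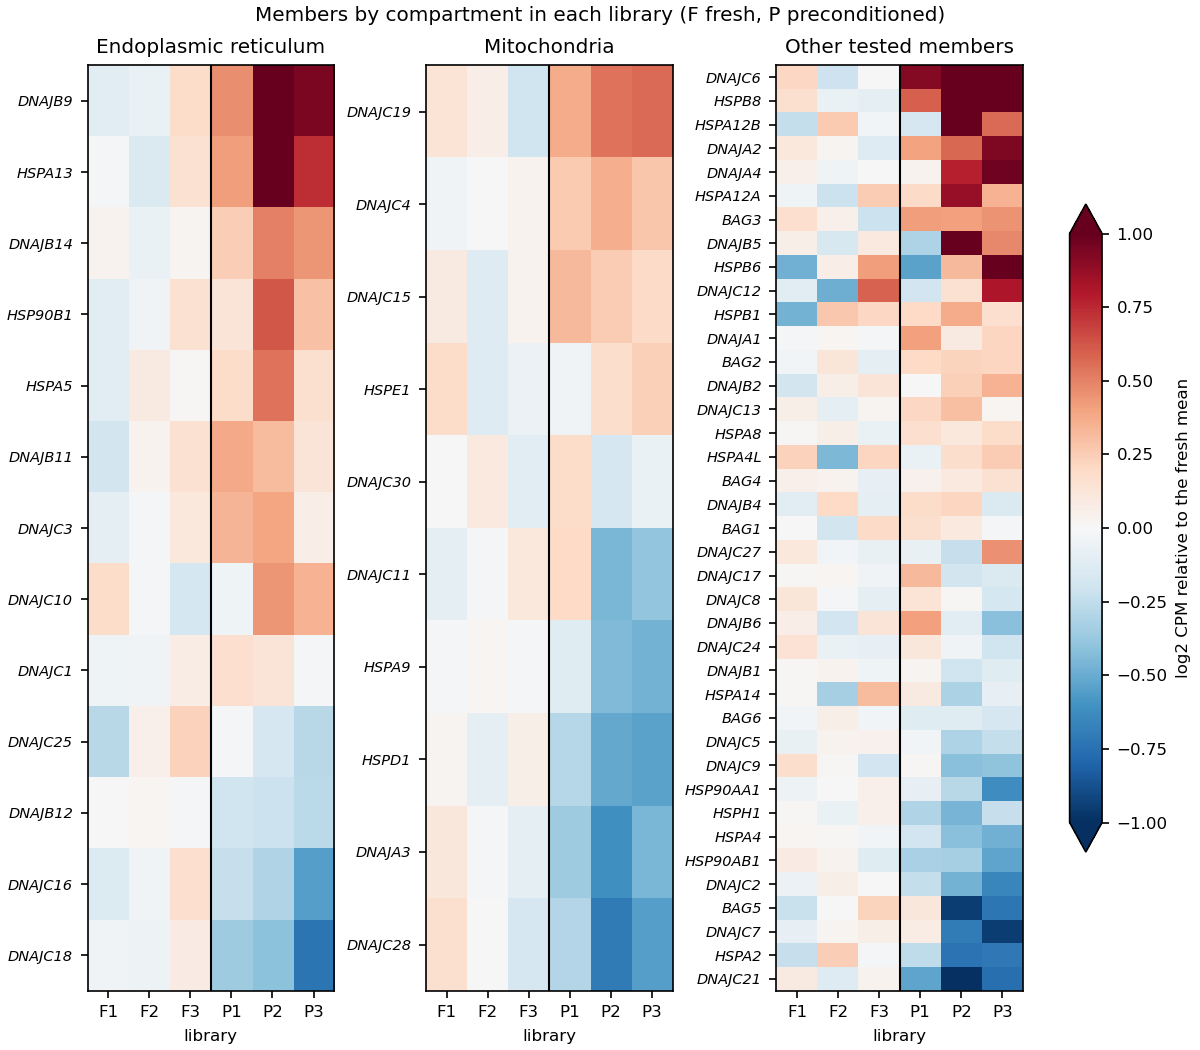
Log2 CPM of each tested member in the 3 fresh (F) and 3 preconditioned (P) libraries relative to the fresh mean, by compartment, with red above and blue below and the colour scale ending at −1 and 1. Within each panel the genes are sorted from higher to lower. Preconditioned replicate 1 is the preconditioned library nearest to the fresh mean in 41 of 62 members, a share that was not determined for all tested genes.

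Genes listed as classically induced by heat did not rise together. Of 21 listed, 19 had a row and 18 were tested, with a median log2 fold change of 0.09 and a range of −0.93 to 0.42. Untested were HSPA6 and, without a row by symbol, HSPA1A and HSPA1B. The list also held HSPA8 and HSP90AB1, named constitutive above. HSPB1 was counted by the row with that symbol, whereas LOC127488490 was at 0.37 (edgeR, unadjusted p = 0.044). At an unadjusted p of at most 0.05, BAG3 was higher and 5 genes were lower (HSP90AB1, HSPH1, HSPD1, STIP1 and FKBP4), where 15.5% of all tested genes were higher and 15.1% lower. FKBP4 alone passed the adjusted threshold in edgeR, which 5.08% of all tested genes passed. In DESeq2 the members HSP90AB1 and HSPD1 of this list passed it as well, where 19.1% of its genes did. FKBP4 (FKBP52), a co-chaperone of HSP90 at steroid receptors, fell from 107, 99.2 and 98.6 CPM in fresh to 69.0, 49.4 and 41.6 CPM in preconditioned libraries (−0.93, SE 0.19, adjusted p = 0.043). STIP1 (HOP), which links HSP70 to HSP90, was lower in every preconditioned library (−0.51, SE 0.20, adjusted p = 0.14).

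In the lists of genes that work with the members, 62 of 69 were tested, and none was differentially expressed with the fold change cutoff in edgeR, where 2.29% of all tested genes were. At an unadjusted p of at most 0.05, 12 were higher and 5 lower, against 15.5% and 15.1% of all tested genes. At the adjusted threshold without the cutoff, 4 rose and 1, FKBP4, fell, against 2.88% and 2.2% of all tested genes. HSBP1, a small protein that binds heat shock factor HSF1, rose from 148, 143 and 147 CPM in fresh to 246, 273 and 273 CPM in preconditioned libraries (0.86, SE 0.10, adjusted p = 0.018). HSF1 itself was at −0.21 (SE 0.12, adjusted p = 0.28) and HSF4, at the other end of this list, at 1.44 (SE 0.65, adjusted p = 0.18). SIL1, the nucleotide exchange factor of BiP, rose from 38.6, 45.4 and 40.0 CPM to 59.9, 94.4 and 76.7 CPM (0.90, SE 0.18, adjusted p = 0.042). SEC62, part of the ER translocon, rose from 179, 162 and 151 CPM to 243, 289 and 254 CPM (0.68, SE 0.12, adjusted p = 0.038). STUB1 (CHIP), the ubiquitin ligase that marks HSP70 clients, rose from 66.2, 61.3 and 74.1 CPM to 91.2, 96.7 and 98.0 CPM (0.50, SE 0.11, adjusted p = 0.048).

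These 5 partner genes had separated groups and kept their direction under all 16 alternatives, but FKBP4, SIL1, SEC62 and STUB1 missed the threshold when any 1 library other than preconditioned replicate 1 was left out, and HSBP1 missed it in 4 of these 5 cases. Over all 16 alternatives the threshold was missed in 10 for STUB1, 8 for SIL1, 7 each for FKBP4 and SEC62 and 6 for HSBP1. Of the 11 ER folding partners, 10 were above 0 (50.5% of all tested genes were), from 0.06 for CALR to the value of SEC62, and PDIA6 was at −0.30 (adjusted p = 0.20). All 6 subunits of prefoldin, which passes nascent actin and tubulin to the chaperonin TRiC, were between 0.24 (PFDN4) and 0.37 (PFDN2), with adjusted p of 0.087 to 0.29. The 8 tested TRiC subunits overlapped between groups without exception, from −0.39 for CCT6A to 0.18 for CCT2, with adjusted p of 0.23 to 0.93, whereas 36.7% of all tested genes had separated groups. YME1L1 (0.43, adjusted p = 0.057) and CLPB (−0.35, adjusted p = 0.076) bounded the mitochondrial partners. CRYAB, a small heat shock protein without an HSPB symbol, and SERPINH1, the collagen chaperone, overlapped between groups (0.30 and 0.36, adjusted p = 0.75 and 0.31).

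Genes of other cell types and of the cell cycle were read beside these results. Proliferation markers (6 of 6 tested) summed to 358.8, 274.6 and 269.7 FPKM in fresh and 226.4, 79.57 and 83.53 FPKM in preconditioned libraries, with all 6 log2 fold changes below 0 (−1.90 for MKI67 to −0.72 for PCNA) but none past the adjusted threshold (adjusted p = 0.086 to 0.22). Preconditioned replicate 1 was again nearest to the fresh libraries. Stromal markers (11 of 12 with a row) summed to 287.2 to 583.8 FPKM in fresh and 460.4 to 947 FPKM in preconditioned libraries, and only COL1A1 of them was differentially expressed. Immune markers summed to 80.5 to 105 FPKM in fresh and 88.8 to 212 FPKM in preconditioned libraries, with the higher values in replicates 2 and 3. Nearly all of this sum was CD68, a lysosomal protein of macrophages (mean 83.4 FPKM in fresh and 163 FPKM in preconditioned cells), whereas PTPRC, CSF1R, ITGAM, CD3E and CD79A had a mean below 1 FPKM in both groups. Conjunctival markers summed to 1925 to 3636 and 1585 to 3182 FPKM. Of these, KRT13 and KRT4 had 61.07 and 44.22 CPM in preconditioned replicate 1. The other libraries had 3.918 to 20.62 CPM of KRT13 and 1.548 to 13.05 CPM of KRT4. KRT19, KRT7 and KRT8 were highest in other libraries. Smooth muscle markers summed to 48.2 to 97.2 and 56.9 to 110 FPKM, whereas melanocyte and vascular endothelial markers were at most 1.29 and 3.52 FPKM in any library. The corneal and limbal epithelial markers found by symbol (8 of 11, without KRT12, KRT14 and ALDH3A1) summed to 7008 to 9908 and 6693 to 9107 FPKM, most of it from CLU, with KRT15 at 0.988 to 9.71 CPM. KRT3, a keratin of differentiated corneal epithelium, had 961, 2655 and 409 CPM in fresh and 801, 240 and 697 CPM in preconditioned libraries (−1.21, SE 0.72, adjusted p = 0.30). TP63, the stem cell marker p63, had 246, 226 and 239 CPM in fresh and 184, 122 and 112 CPM in preconditioned libraries (−0.77, SE 0.19, adjusted p = 0.059), whereas EPCAM, another gene of this list, had 91.8, 79.4 and 77.5 CPM in fresh and 102, 126 and 125 CPM in preconditioned libraries (0.50, SE 0.13, adjusted p = 0.06). PAX6 was at 0.81 (adjusted p = 0.11), and the 8 epithelial genes divided into 4 above and 4 below 0. The part of these genes in the chaperone values was not tested, and in bulk RNA fewer cells of a type and less RNA per cell cannot be told apart.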

How the data were processed

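Polyadenylated RNA of 3 fresh and 3 preconditioned LSC cultures was sequenced. The authors aligned the reads with hisat2 (2.1.0), counted them per gene with htseq-count (0.11.2) and deposited raw counts and FPKM values. The genome build, annotation, strand setting and gene lengths are not given in the sources used here, and reads of overlapping or antisense genes may not be separable. For RNA extraction the sample records name TRIzol and the methods an Omega kit.

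Samples were grouped by their titles. The deposited counts were tested with edgeR 4.0.16 in R 4.3.3 (filterByExpr, TMM, robust quasi-likelihood test, Benjamini-Hochberg adjustment over 15029 genes). The SE was derived from the test statistic. FPKM was used for levels between genes and for sums, shares and ratios, without a test. Members were named with values if their unadjusted p was at most 0.05, if they were among the 3 highest by FPKM or the extremes of a subfamily, or if they were classic heat-inducible genes. Of partner lists the genes past the adjusted threshold and the extremes were named. HSPB2, HSPB3, HSPB7, DNAJC7, DNAJC28 and CALR, outside this rule, were chosen after their values were seen. The members and lists were chosen with earlier results of these data known.

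Alternatives were DESeq2 1.42.0, its size factors, library size alone, other filters, a block for replicate number, each library left out in turn, limma 3.58.1 on log2(FPKM + 1) and log2(FPKM + 0.1), and glmTreat. Summing gene copies was added after the data were seen. The fits were tested on simulated data. Same-group libraries differed by more than sampling noise (chi-square per degree of freedom 48.1 to 147). Of the 69 gene identifiers, 68 were found in the RefSeq table of mOryCun1.1, which was used for names and neighbours only. No sequences were used here.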

Additional observations from a re-analysis of the deposited data

How the results depend on the processing

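Of the 43 tested members that the naming rule gave, 35 kept their sign under every alternative in which they were tested (15 of 16 for HSPA12B). All tested genes called numbered 344, against 1190 with DESeq2, 565 with library size alone, 590 with limma on log2(FPKM + 0.1), 24 with glmTreat and 14 to 1546 when 1 library was left out (1546 without preconditioned replicate 1). Members called numbered 0, against 1 (DNAJC6) with DESeq2 and 1 (DNAJC6) without a filter, and 0 to 3 when 1 library was left out. Members at an adjusted p of at most 0.05 numbered 2 (5.08% of all tested genes passed), against 11 with DESeq2 (19.1%), 8 with library size alone (8.92%), 5 without a filter (4.38%), 7 with limma on log2(FPKM + 1) (7.55%), 7 on log2(FPKM + 0.1) (8.02%) and 0 to 19 when 1 library was left out (0.0908% to 25.2%). Partner genes called numbered 0, against 1 (FKBP4) with library size alone and with each limma fit, and 0 to 2 when 1 library was left out. The members' median of 0.09 moved to −0.081 with library size alone (all genes −0.16), −0.068 with limma on log2(FPKM + 1) (all genes −0.09) and −0.080 on log2(FPKM + 0.1) (all genes −0.15), where FPKM keeps the scaling by library total.

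The sign turned with library size alone, limma on log2(FPKM + 1) and limma on log2(FPKM + 0.1), in this order, for BAG1 (−0.096, −0.088, −0.090), DNAJB4 (−0.084, −0.078, −0.084), HSPA4L (−0.078, −0.048, −0.050), HSPA8 (−0.017, −0.018, −0.018) and HSPE1 (−0.045, −0.042, −0.043). DNAJB6 turned to 0.0029 with DESeq2 size factors and 0.0008 with a minimum CPM of 1. With 1 library left out, the values ran from −0.019 to 0.17 for BAG1, −0.27 to 0.17 for DNAJB6, −0.093 to 0.074 for DNAJC8, −0.10 to 0.20 for HSPA4L and −0.086 to 0.82 for HSPB6. The cause was not tested. Over its alternatives the adjusted p was 0.00024 to 1.0 for HSPB8 and 0.0021 to 1.0 for DNAJB9, both highest in glmTreat, which tests against a log2 fold change of 1.

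Libraries with the same replicate number did not deviate together (correlations of −0.067, −0.073 and −0.109), so the numbers were not taken as pairs. With the replicate block, 30 genes and 0 members were called, and the adjusted threshold was passed by 0 members and 0.2% of all tested genes (HSPB8 0.098, DNAJB9 0.089), and the 5 partner genes past it without the block were at 0.076 to 0.12. HSPA12B, HSPB6, HSPB3 and the HSP70 1B rows rest on few counts per library.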
